A study of Oedaleus asiaticus with 9 samples.

Results

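The higher-numbered known miRNA families of the band-winged grasshopper *Oedaleus asiaticus* were followed through female development. They were taken as the known entries of at least 20 nt whose family number is 1000 or higher, without the miR-2765 entries. This rule found 19 entries of 16 families among 291 known entries and 365 entries in all. The libraries came from females at 3 stages, namely nymphs of the 3rd instar, nymphs of the 5th instar and adults. All were fed normally with no special treatment. The labels call each stage 3-day-old, for adults post-emergence, so these 3 days are not a shared age since hatching. Each stage had 3 libraries. The labels give the stage where a tissue would stand, so no tissue could be checked against markers, and fewer cells of a type cannot be told apart from less of a miRNA per cell. The labels do not say whether replicates were separate animals. The spread on which p-values rest may therefore be technical.

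A miRNA is a short RNA that guides an Argonaute protein to messenger RNAs, mostly by pairing of its seed, bases 2 to 8, and lowers their output. Family numbers follow the order of discovery. Low numbers such as miR-1 and miR-8 are mostly held by families shared widely among animals, and high numbers more often by families known from 1 lineage. Insect families with high numbers include miR-3477, known from bees and beetles. Another is miR-1175, which lies in a cluster with miR-1174 in mosquitoes and is found in their midgut. Also among them is miR-2796, which lies in a phospholipase C gene and is enriched in the brain in the honeybee. The family miR-1000 controls the vesicular glutamate transporter in fly neurons, and miR-2788 was named in silkworm.

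The sequences of the 10 most abundant of the 19 entries are shown because the stage comparisons turn on them. They run 5′ to 3′ with T for U, as the deposited table writes them, and capitals mark the seed:
miR-3477-x: tAATCTCAtgtggtaactgtga
miR-1175-y: tGAGATTCaactcctccaact
miR-2796-y: gTAGGCCGgcggaaactacttgc
miR-6497-x: cTCTGAGGatcggggcgtgtc
miR-1175-x: aAGTGGAGaagtggtctcttca
miR-9226-x: aGGTCCCTgttcgggcgcca
miR-11987-z: aGAGGAAActctggtggagg
miR-1000-x: aTATTGTCctgtcacagcagt
miR-6651-x: aCCAGGTTggctaaggaggggc
miR-2788-x: tGGGGTTTctaagcggcatttgc
No seed is shared between different families among these 10. Outside the higher-numbered families, miR-216-x and miR-304-z have the seed of miR-3477-x, and miR-755-y has that of miR-1175-y. No source used here says what the endings x, y and z stand for.

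Close relatives of the leading entries are shown because reads of a miRNA and of a near-identical entry could be split between them:
miR-304-z: tAATCTCAtgttgtaactgtga
miR-3477-z: tAATCTCAtgtggtaactttgaga
miR-755-y: tGAGATTCaactactccaact
miR-1000-z: aTATTGTCctgtcacagcagtaa
Counted from 1 at the 5′ end, miR-304-z differs from miR-3477-x by 1 substitution, G12T, and miR-3477-z by G19T and 2 further bases at its end. miR-755-y differs from miR-1175-y by C13A, and miR-1000-z is miR-1000-x with 2 further bases. Relatives of miR-3477-x and miR-1175-y were rare. Of the counts of both entries, miR-304-z held 0.123%, miR-3477-z 0.00573% and miR-755-y 0.0305%, while miR-1000-z held 5.75%. For miR-1000-z this share ran from 0% in each 5th instar library to 25.0% in adult replicate 1, where it had 3 counts. Values of miR-3477-x and miR-1175-y therefore change little whichever entry such reads are given to. A different relation holds between miR-1175-x and miR-1175-y, which pair with each other over 16 bases at a predicted -15.4 kcal/mol, and between miR-2788-x and the 18 nt entry miR-2788-y (cAATGCCCttggaaatcc), which pair over 17 bases at -22.8 kcal/mol. Pairing of this kind is known from the strands that the arms of 1 miRNA hairpin release. The paired bases need not form 1 unbroken run. Pairing was computed for these 2 pairs of entries only, so whether unrelated entries would pair less was not tested.

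The higher-numbered families took up little of the libraries, and 3 entries made up nearly all of it. Total counts were 1462586 to 5309504 per library, and the 19 entries held 0.288% to 0.562% of them. The share averaged 0.338% ± 0.0503 at the 3rd instar, 0.420% ± 0.0494 at the 5th and 0.459% ± 0.110 among adults (SD over 3 libraries). Counting error alone gave these library shares 95% Wilson intervals no wider than 0.0242 percentage points. Together miR-3477-x, miR-1175-y and miR-2796-y held 93.6% to 96.5% of the reads of the 19 entries, and miR-3477-x by itself 60.7% to 81.1%. Between 15 and 18 of the 19 had a count in a library. An entry without one could hold up to 0.652 normalised CPM in the library with the lowest limit and 1.98 in that with the highest (3 counts). Normalised CPM are counts scaled to a common library size (CPM) with TMM factors, which allow for differences in composition. The shares above were taken without these factors. Scaling by library totals alone raised the median log2 fold change of all entries by 0.29 between the 3rd and the 5th instar.

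Of the 19 entries, 10 belonged to 7 families on a list of families named from insects or other arthropods. The other 9 entries, each of its own family, were on no list used here. The lists are incomplete, since among these 9 miR-6497 is known from silkworm and miR-3157 and miR-6749 are known from human, so being on no list says nothing of a family's origin. A low-count filter by stage was passed by 9 entries, 5 from the insect list (miR-3477-x, miR-1175-y, miR-2796-y, miR-1175-x, miR-1000-x) and 4 on no list (miR-6497-x, miR-9226-x, miR-11987-z, miR-6651-x). That is 47.4% of the 19, beside 30.4% of the 79 known entries of the higher-numbered families at 18 or 19 nt, 66.7% of the 162 other known entries of 20 nt or longer and 49.0% of all 365 entries, so the share was near that of the whole table. Median levels over the entries of these sets were 2.85, 0.918, 14.9 and 2.55 normalised CPM. Sequences started with T in 8 of the 19 (42.1%), in 22.8% of the shorter higher-numbered entries, in 58.6% of the other known entries and in 42.2% of all entries. Median GC content was 50.0%, 55.6%, 45.0% and 47.8% in the same order. These are descriptions, and no difference between the sets was tested.

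Levels of the 10 most abundant entries fell off steeply, and the order of the first 6 of them was the same in 9 of 9 libraries. miR-3477-x stood at 2482, 2397 and 2207 normalised CPM at the 3rd instar, 2568, 2427 and 2644 at the 5th and 4413, 2696 and 2858 among adults. It ranked 15 among all known entries by its mean of 2744 CPM, and it exceeded each of the others in every library. miR-1175-y stood at 866, 716 and 721 CPM in the 3rd instar, 661, 989 and 712 in the 5th instar and 581, 770 and 696 in adults. No stage lay apart from another for it, and it ranked 30 among known entries. miR-2796-y stood at 466, 682 and 304 CPM in the 3rd instar, 200.1, 208 and 460 in the 5th instar and 236, 182 and 299 in adults. The highest 2 of these 9 libraries were of the 3rd instar, but 5th instar replicate 3 was almost as high, so that both nymphal stages overlapped. miR-1175-y was higher than miR-2796-y in 9 of 9 libraries, although their ranges over all libraries overlapped.

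**Figure D1:**
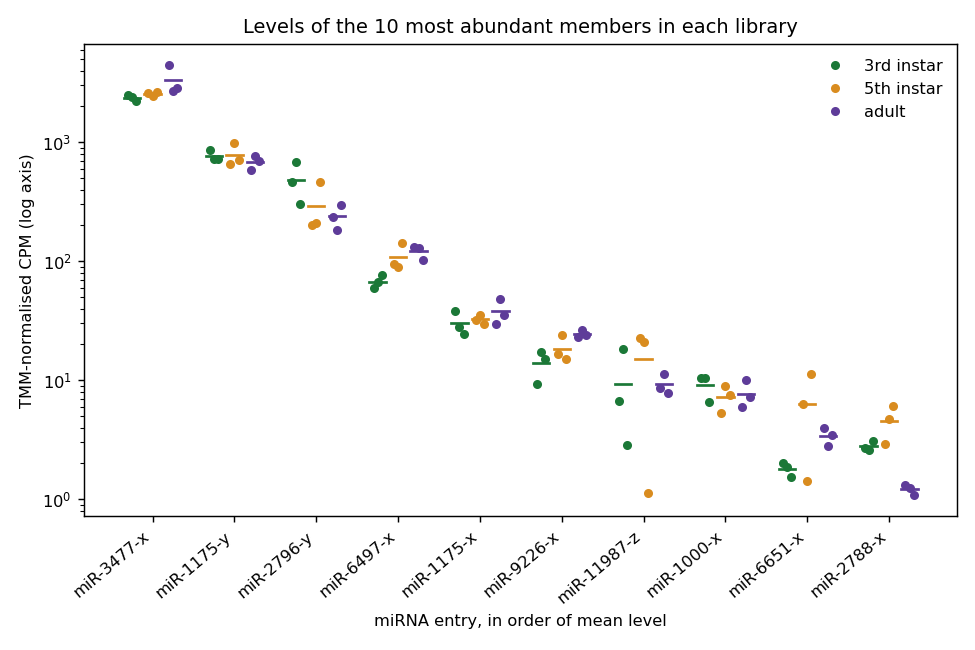
Levels in TMM-normalised CPM (log axis) of the 10 most abundant entries, with 1 point per library, stages from the 3rd instar (left) to the adult (right) in each group and a bar at each stage mean (n = 3). miR-3477-x lies above all others in every library, and the entries from miR-9226-x to miR-2788-x overlap with their neighbours.

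The next entries were rarer still. miR-6497-x stood at 59.2, 66.8 and 76.3 CPM in the 3rd instar, 95.4, 89.3 and 142 in the 5th instar and 132, 130.2 and 102 in adults. Every 5th instar and adult library was above every 3rd instar library, and the 5th instar and adult libraries overlapped. miR-1175-x, predicted to pair with miR-1175-y, lay between 24.2 and 48.2 CPM, with a median of 32.0, below miR-6497-x in 9 of 9 libraries. miR-9226-x stood at 9.36, 17.2 and 15.0 CPM in the 3rd instar, 16.5, 23.7 and 15.0 in the 5th instar and 23.2, 26.4 and 24.1 in adults. Its adult libraries were all above its 3rd instar libraries. It is also the member with the highest GC content (70.0%) and the only one of the 19 to end in CCA, the letters that mature transfer RNAs carry at their 3′ end; 13 of the 79 shorter higher-numbered entries and 0 of the 162 other known entries did so. Whether its reads come from a transfer RNA was not tested.

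The rarest tested entries overlapped in level, so their order is not firm. miR-11987-z varied strongly within both nymphal stages, with 20, 49 and 13 counts in the 3rd instar, 47, 44 and 3 in the 5th instar and 13, 36 and 36 in adults. In CPM it ranged over 2.87 to 18.3, 1.13 to 22.8 and 7.82 to 11.2 in the same order. It was higher than the next entry, miR-1000-x, in 6 of 9 libraries. miR-1000-x lay between 5.33 and 10.4 CPM, with all stages overlapping. miR-6651-x stood at 2.01, 1.87 and 1.54 CPM in the 3rd instar, 6.30, 1.42 and 11.3 in the 5th instar and 3.97, 2.80 and 3.48 in adults. Its 5th instar libraries enclosed all the others, and its adult libraries lay above those of the 3rd instar.

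Late nymphs of the 5th instar were set against young nymphs of the 3rd instar to find miRNAs that change within nymphal life. None of the 9 tested entries met both limits of the study, which asks for adjusted p below 0.05 together with a log2 fold change beyond 1 in either direction (edgeR 0 of 9, DESeq2 0 of 9). DESeq2 gave no adjusted p to miR-9226-x, miR-11987-z, miR-1000-x and miR-6651-x here, so it could not call them. Of these, miR-6651-x was beyond the fold limit by DESeq2 (log2 fold change 1.83). Over all 179 tested entries edgeR called 1.68% and DESeq2 2.23%, with entries lacking an adjusted p counted as not called. With the adjusted p alone, edgeR passed 0 of the 9 and 2.23% of all entries. An unadjusted p under 0.05 was reached by 2 of the 9, miR-6497-x and miR-6651-x, beside 17.3% of all entries. With 6, 5 and 7 counts in the 3rd instar, miR-6651-x passed the low-count filter only through 5th instar and adult libraries. The p of miR-6651-x thus belongs to an entry admitted by the stages where it is higher. miR-6497-x averaged 109 ± 28.6 CPM in the 5th instar and 67.4 ± 8.57 in the 3rd instar (SD, n = 3 each). The log2 fold change was 0.69 with an SE of 0.22 (adjusted p = 0.166). DESeq2 gave it 0.68 and an adjusted p of 0.0495, short of the fold limit. It was the 1 member of the 9 whose stages did not overlap, as were 29.1% of all tested entries. miR-6651-x averaged 6.33 ± 4.92 CPM in the 5th instar and 1.80 ± 0.237 in the 3rd instar, a log2 fold change of 1.82 ± 0.68 (adjusted p = 0.195) that was 1.12 without 5th instar replicate 3. miR-2796-y averaged 289 ± 148 CPM at the 5th and 484 ± 190 at the 3rd instar (log2 fold change -0.74 ± 0.41, adjusted p = 0.353).

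Of the insect-list entries, miR-3477-x and both miR-1175 entries had small differences at this step. The log2 fold changes were 0.11 ± 0.18 for miR-3477-x, 0.036 ± 0.18 for miR-1175-y and 0.10 ± 0.26 for miR-1175-x, with adjusted p of 0.815 to 0.909. miR-1000-x had -0.32 ± 0.39 (adjusted p = 0.729). The median over the 9 was 0.11, beside 0.0036 over all tested entries.

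Adults were set against the 5th instar to find miRNAs that differ across the last moult. Here 0 of 9 entries were called by edgeR and 0 by DESeq2, with 1.12% of all entries called by each, 0 of 9 passed the adjusted p alone (1.68% of all entries), and 0 of 9 reached an unadjusted p under 0.05, beside 10.1% of all entries. miR-3477-x averaged 3323 ± 948 CPM in adults, against 2546 ± 110 CPM before the moult. The log2 fold change was 0.38 ± 0.18 (adjusted p = 0.439). All its adult libraries were above all its 5th instar libraries, and it was the 1 entry of the 9 for which these stages did not overlap, beside 14.0% of all tested entries. The difference rests largely on adult replicate 1, at 4413 CPM, since the log2 fold change was 0.11 without it. miR-2796-y had -0.28 ± 0.41 (adjusted p = 0.822), and the sign turned to 0.22 without 5th instar replicate 3. The other log2 fold changes lay between -0.92 for miR-6651-x and 0.42 for miR-9226-x, and the lowest adjusted p of the 9 was that of miR-3477-x.

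Adults were also set against the 3rd instar, the ends of the course. miR-6497-x rose 1.80-fold, with 121 ± 16.9 CPM in adults and 67.4 ± 8.57 in the 3rd instar (SD, n = 3 each), a log2 fold change of 0.84 ± 0.22 (edgeR adjusted p = 0.0282). It passed the adjusted p and not the fold limit. It was the 1 entry of the 9 to pass the adjusted p, as did 7.82% of all tested entries. It passed by DESeq2 too (log2 fold change 0.78, adjusted p = 0.00848) and under the other 9 settings that kept every library, but when 1 library was left out it passed in 4 of 9 cases. Leaving out any 3rd instar library, adult replicate 1 or adult replicate 2 ended the pass, with adjusted p of 0.059 to 0.155, although the log2 fold change stayed between 0.76 and 0.99 over all 9. With both limits, edgeR called 0 of the 9, beside 3.91% of all entries.

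miR-2796-y averaged 239 ± 58.8 CPM in adults and 484 ± 190 in the 3rd instar, and its highest adult library (299) lay just below its lowest 3rd instar library (304). The log2 fold change was -1.02 ± 0.41 with an adjusted p of 0.124 by edgeR. DESeq2 gave -1.06 and an adjusted p of 0.0295, which made miR-2796-y the 1 entry of the 9 that DESeq2 called, beside 8.38% of all entries. It passed the adjusted p in none of the other settings tried, with edgeR adjusted p of 0.085 to 0.286 when 1 library was left out and a log2 fold change of -0.75 without 3rd instar replicate 2.

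miR-3477-x averaged 3323 ± 948 CPM in adults and 2362 ± 141 in the 3rd instar, a 1.41-fold difference (log2 fold change 0.49 ± 0.18, adjusted p = 0.0991) with no overlap of libraries. Without adult replicate 1 the log2 fold change was 0.24. miR-9226-x averaged 24.6 ± 1.68 CPM in adults and 13.8 ± 4.03 in the 3rd instar (log2 fold change 0.83 ± 0.30, adjusted p = 0.0991), also with no overlap. Scaled by library totals alone, which raised the median log2 fold change of all entries by 0.18, miR-9226-x and miR-6497-x met both limits (1.04 and 1.03, edgeR adjusted p = 0.0368 and 0.0188). Under that scaling 19 of all 179 tested entries were called, against 7 in the main fit.

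Over this comparison 4 of the 9 entries had an unadjusted p under 0.05, beside 35.8% of all entries. The stages did not overlap for 5 of the 9, namely miR-3477-x, miR-2796-y, miR-6497-x, miR-9226-x and miR-6651-x, beside 31.3% of all entries. Of these, miR-6651-x passed the low-count filter only through 5th instar and adult libraries. In direction, 6 of the 9 were higher in adults and 3 lower, beside 97 higher and 82 lower of all 179 tested entries. The median log2 fold change was 0.33, beside 0.050 over all tested entries. Of these directions, that of miR-11987-z (0.013) turned with RLE factors, with DESeq2, with a stricter filter and among known entries only, and that of miR-1175-y with library totals alone. The 3 comparisons share libraries, so they are not separate evidence. A single test over all 3 stages passed for 0 of the 9 by edgeR (lowest adjusted p = 0.0792, for miR-6497-x; unadjusted p under 0.05 for 2 of 9, beside 24.6% of all entries) and for 1 by DESeq2 (miR-6497-x, adjusted p = 0.0232). Over all entries edgeR passed 4.47% and DESeq2 12.8%.

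**Figure D2:**
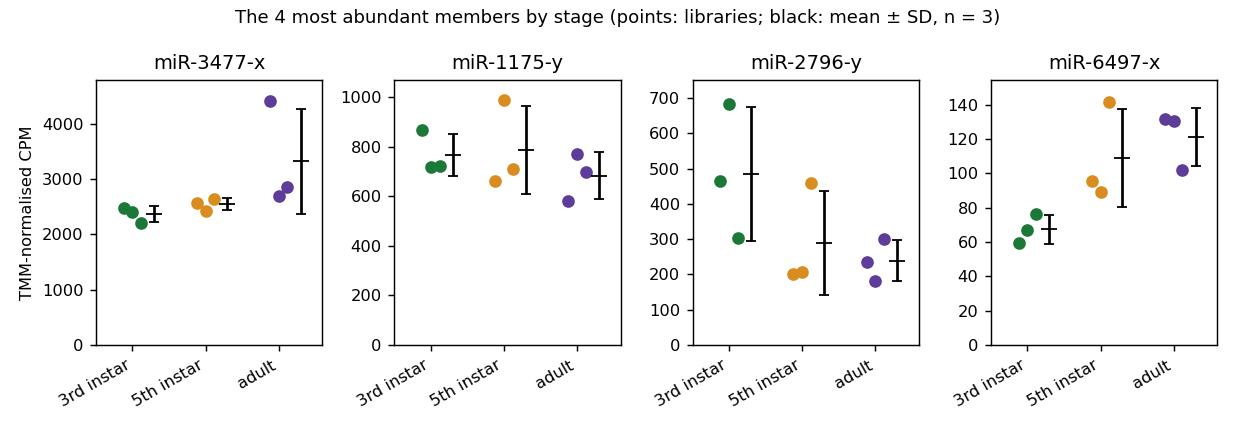
TMM-normalised CPM of miR-3477-x, miR-1175-y, miR-2796-y and miR-6497-x by stage on linear axes from 0, with 1 point per library and the stage mean ± SD in black (n = 3). The miR-6497-x libraries of the 3rd instar lie below all others, and 1 adult library of miR-3477-x stands at 4413 CPM.

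**Figure D3:**
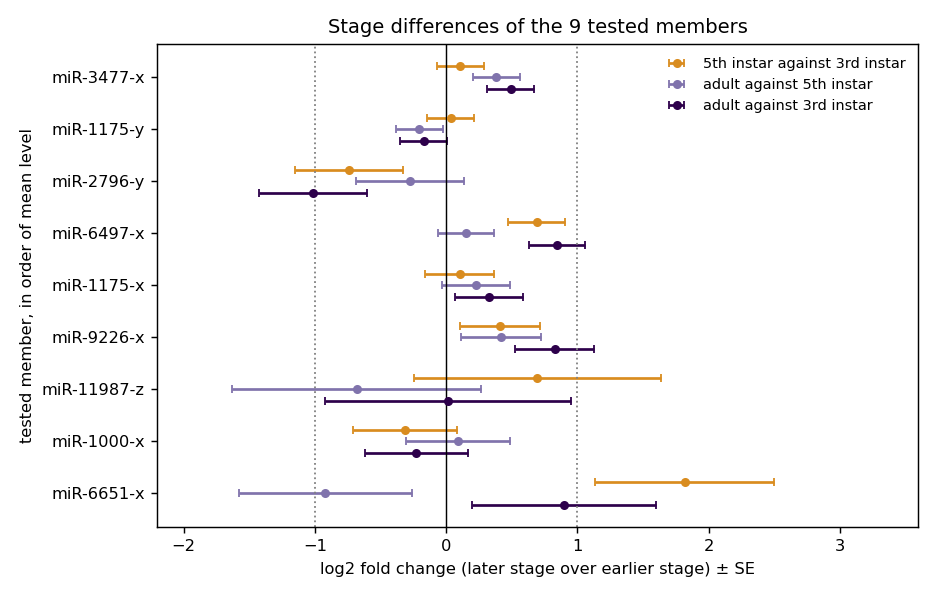
Log2 fold changes of the later over the earlier stage with SE for the 9 tested entries and 3 comparisons, dotted lines marking the fold limit of 1. miR-2796-y is negative in all 3 comparisons and miR-6497-x positive, while miR-11987-z and miR-6651-x have the widest errors.

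The x and y entries of miR-1175 were compared within each library, where scaling between libraries drops out. This ratio was chosen after the values were seen. miR-1175-y exceeded miR-1175-x in every library, by 22.5, 25.6 and 29.7 times in the 3rd instar, 20.7, 27.8 and 24.0 times in the 5th instar and 19.5, 16.0 and 19.5 times in adults. The ratio in adults was 18.3 ± 2.04, against 24.1 ± 3.56 in the 5th instar and 26.0 ± 3.62 in the 3rd instar (SD, n = 3 each). All adult libraries were below all nymphal libraries. The log2 ratio differed by -0.50 ± 0.15 (SE) between adults and the 3rd instar and by -0.39 ± 0.16 between adults and the 5th instar, each with p = 0.10 in a two-sided exact permutation test, the smallest p that 3 against 3 libraries allow. An exact permutation test over the 3 stages gave p = 0.0571. The adjusted p of this test over the 2 families compared in this way was 0.114, so the difference did not pass. The entries themselves had log2 fold changes of -0.17 ± 0.18 (miR-1175-y, 0.0070 with library totals alone) and 0.33 ± 0.26 (miR-1175-x) between adults and the 3rd instar.

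The other family compared in this way is miR-2788. miR-2788-x had 8, 7 and 14 counts in the 3rd instar, 6, 10 and 16 in the 5th instar and 2, 4 and 5 in adults, too few for the low-count filter. In CPM, its adult libraries (1.09 to 1.32) were all below those of the 5th instar (2.91 to 6.01) and of the 3rd instar (2.61 to 3.09). In a fit without the filter the log2 fold change was -1.87 ± 0.71 between adults and the 5th instar and -1.20 ± 0.71 between adults and the 3rd instar (adjusted p = 0.336 and 0.304). The ratio of miR-2788-y to miR-2788-x was 21.9 ± 8.17 in adults, 17.4 ± 7.05 in the 5th instar and 22.3 ± 4.39 in the 3rd instar, with all stages overlapping (exact permutation test over 3 stages, p = 0.625).

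**Figure D4:**
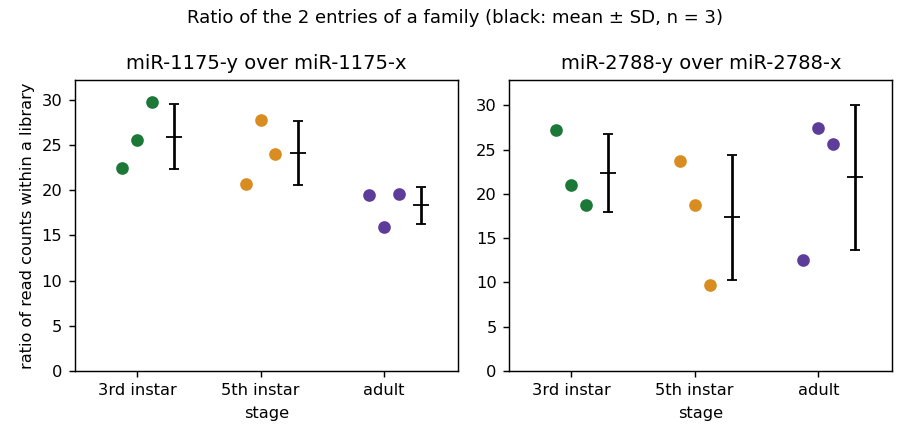
Ratio of read counts of the y entry to the x entry within a library for miR-1175 (left) and miR-2788 (right) by stage, with 1 point per library and the mean ± SD in black (n = 3). For miR-1175 the adult libraries lie at 16.0 to 19.5 and the nymphal ones at 20.7 to 29.7, while for miR-2788 all stages overlap.

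The remaining 9 entries were too rare to be tested. On the insect list, miR-6012-y had 44 counts in all, with 0, 1 and 3 in the 5th instar libraries against 6 to 10 in each 3rd instar library, miR-3770-x had 35, miR-1000-z 13 and miR-3477-z 4. These counts are not scaled for library size, and in CPM miR-6012-y stood at 0 to 1.13 in the 5th instar and 2.01 to 2.98 in the 3rd. miR-1000-z was listed at 0 in all 3 libraries of the 5th instar and had 1 to 3 counts in each other library, or 0.220 to 1.98 CPM. The limit of 3 counts in the 5th instar libraries was 1.13 to 1.45 CPM, so counts of 0 do not show a lower level there. In a fit without the filter its adjusted p was 0.336 for the adult against the 5th instar and 0.334 for the 5th against the 3rd instar, and that of miR-6012-y was 0.324 for the 5th against the 3rd instar. On no list, miR-1800-z had 55 counts, miR-3533-z 30, miR-3157-y 26, miR-3050-z 9 and miR-6749-y 7.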

How the data were processed

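Small RNA of female *Oedaleus asiaticus* was read from 9 libraries. The deposited table gives raw read counts per miRNA entry, per the file headers, not normalised by the authors; no source used here names the aligner, counting tool or reference. Its TPM values, also made by the authors per the file headers, are counts divided by 1 total per library, with no correction for length, and entries of 0 counts are written as 0.01, as tested on the table. Tests used the counts, and TPM served as an alternative for levels. Listed counts summed to 1462586 to 5309504 per library, with TMM factors of 0.854 to 1.17. The counts were used without molecular identifiers, so intervals and limits reflect counting error only. No 2 libraries of a stage agreed within sampling noise (chi-square per degree of freedom at least 67.2).

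Entries passing edgeR's filter by stage (179 of 365) were fitted together with edgeR 4.0.16 in R 4.3.3 (robust quasi-likelihood, stages as groups, all 9 libraries), with Benjamini-Hochberg adjustment over all tested entries. The limits, adjusted p under 0.05 and absolute log2 fold change above 1, are those the study states. Each SE is the size of the log2 fold change over the root of its F statistic. Pairing between entries was computed with RNAduplex 2.7.2 and exact permutation tests with SciPy 1.17.1. Alternatives were DESeq2 1.42.0, other scalings, filters and sets of entries, only 2 stages, the replicate number as a block, and leaving out each library. Adjusted p that DESeq2 gave as missing stayed so (4 of the 9 entries in the nymphal comparison). Named with tests were the 10 most abundant entries, any entry called, and the 4 with the smallest p per comparison. The entries, the family lists and the rule were chosen with earlier results of these data known, and the ratios within a family after the values were seen.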

Additional observations from a re-analysis of the deposited data

How the results depend on the processing

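No entry of the higher-numbered families was called by both limits between the nymphal stages or between the adult and the 5th instar under any setting run. For the adult against the 3rd instar, 0 were called in the main fit, 1 with DESeq2 (miR-2796-y), 2 with library totals alone (miR-6497-x, miR-9226-x) and 1 with an adjusted p alone (miR-6497-x); leaving out single libraries gave 0 to 0. Over the 3 stages 0 became 1 (miR-6497-x) with DESeq2 and with library totals, and 0 to 0 without single libraries. Over all entries, the 3 calls of the 5th against the 3rd instar became 1 with library totals and 1 among known entries only (1 to 3 without single libraries). The 2 of the adult against the 5th instar became 1 with library totals, 1 with totals without the 5 most abundant entries and 0 with only the 2 stages compared (0 to 2). The 7 of the adult against the 3rd instar became 15 with DESeq2, 19 with library totals and 14 without a fold limit (3 to 9), and the 8 over 3 stages became 23 with DESeq2 (4 to 9). Library totals shifted the median log2 fold change by 0.29, -0.11 and 0.18 in the 3 comparisons.

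Of 504 recomputed log2 fold changes of the 9 tested entries, 486 kept their sign and side of the limits, 3 passed both limits anew and 15 changed sign, all 15 without a call. For the adult against the 3rd instar these were miR-1175-y at 0.0070 with library totals, and miR-11987-z at -0.050 with DESeq2, -0.037 with RLE factors, -0.046 with the stricter filter, -0.080 among known entries and -0.40 to 0.90 without single libraries. For the adult against the 5th instar these were miR-1000-x at -0.036 with library totals and -0.15 to 0.24 without single libraries, and miR-2796-y at -0.50 to 0.22. For the nymphal stages these were miR-1175-y at -0.13 to 0.20 and miR-1175-x at -0.0056 to 0.36. Log2 ratios of y to x without single libraries ranged over -0.21 to 0.00071 (nymphal stages), -0.50 to -0.29 (adult against 5th instar) and -0.60 to -0.39 (adult against 3rd instar) for miR-1175, and over -0.71 to -0.069, -0.027 to 0.70 and -0.30 to 0.27 for miR-2788. The cause of these changes was not tested.

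Summed over the 19 entries, the level was 3755, 3822 and 4460 normalised CPM in the 3rd instar, 5th instar and adult, and 3319, 4121 and 4490 in deposited TPM. Deviations of same-numbered libraries correlated at -0.22 to 0.41. Differently numbered libraries were not compared in this way, so whether replicate numbers pair the libraries cannot be told. With the number as a replicate block, 2, 2 and 7 entries were called in the 3 comparisons and 11 over 3 stages, with 0 of the 9 among them, and miR-6497-x had an adjusted p of 0.0306 for the adult against the 3rd instar. Entries under about 10 CPM rest on few counts, which limits what can be detected.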

Other observations

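Outside the comparisons, miR-1800-z had 44 counts in adult replicate 2, against 0 and 2 in the other adult libraries, 3, 0 and 6 in the 5th instar and 0 in every 3rd instar library. The single library made up most of its 55 counts, and groups of 3 libraries were not screened for outliers. miR-11987-z stood at 22.8 and 20.9 CPM in 2 of the 5th instar libraries and at 1.13 in 5th instar replicate 3. In that replicate miR-2796-y (460 CPM), miR-6497-x (142 CPM) and miR-6651-x (11.3 CPM) were at their highest of that stage. So were miR-3477-x (2644 CPM) and miR-2788-x (6.01 CPM), while miR-1175-y, miR-1175-x, miR-9226-x and miR-1000-x were not. miR-3477-x took 81.1% of the reads of the 19 entries in adult replicate 1 and at most 71.0% in any other library. No explanation for these values was tested.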
